A study of Mus musculus with 7 samples.

Results

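The genes described here are 36 genes of the cellular response to low oxygen and of glycolysis, measured in macrophages from mouse tumours. They were taken from the deposited count table by gene symbol alone: every row whose symbol was one of the 36 was used, without regard to its values. The 36 symbols themselves were chosen with earlier results of these data known, which limits the comparisons with all genes below. The table had 53379 rows, of which 16234 passed the filter on low counts and were tested, and all 36 genes were among those. Aldoa is listed under 2 identifiers, so the 36 symbols covered 37 rows. The second Aldoa row held about 1 CPM (counts scaled to library size) and is otherwise left aside.

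The macrophages were sorted as cells positive for CD45, CD11b and F4/80 from tumours of MC38, a mouse colon carcinoma line, 21 days after implantation. All mice were C57BL/6J animals on a high-fat diet, 4 of them wild-type for Gpr65 and 3 Gpr65 knockout. Gpr65 encodes a proton-sensing receptor of immune cells, and the comparison asks how its loss changes RNA in tumour macrophages. The labels used here give neither the sex or age of the mice nor whether the knockout was confined to a cell type, and they spell the gene Grp65 in places.

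Hypoxia-inducible factor (HIF) is a dimer of an oxygen-labile alpha subunit, HIF-1 alpha or HIF-2 alpha, and the stable partner ARNT. When oxygen is plentiful, prolyl hydroxylases mark the alpha subunit for destruction through the VHL ubiquitin ligase, so that HIF activity is set largely by protein stability and not by the level of the alpha subunit's RNA. In low oxygen HIF binds short DNA elements with the core ACGTG or GCGTG and raises the transcription of most glycolytic enzymes, of the glucose transporter GLUT1 and of genes for angiogenesis, mitophagy and collagen processing. Macrophages in poorly perfused tumour regions rely on this programme, and inflammatory activation engages it as well.

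Library totals ranged from 22449772 to 30483733 counts. Gpr65 stood at 90.9 ± 19.4 CPM (SD, n = 4) in wild-type and 0.921 ± 0.215 CPM (SD, n = 3) in knockout macrophages, a log2 fold change of -6.62 (SE 0.30, adjusted p = 8e-05). Knockout mouse 1 stood apart from the other 6 libraries: its score on the first principal component, which held 44.2% of the variance, was -68.5, against -2.3 to 28.0 elsewhere, and 940 tested genes had 0 counts in it against 51 to 281 elsewhere. Fold changes that moved by over 1.5 times or changed sign without it, 19 of the 36, are therefore given both ways. All 13 macrophage markers were detected, at a summed level of 36600 to 51400 CPM in wild-type mice and 44200 to 124000 CPM in knockout mice. Apoe made up most of the highest sum, with 74300 CPM in knockout mouse 2, and without it the other 12 summed to 26500 to 32200 CPM and 26000 to 49500 CPM. The lists of other cell types ran lower. Markers of MC38 and other epithelial cells summed to 132 to 457 CPM in wild-type mice against 45.6 to 172 CPM in the knockouts, and all 4 tested genes of the 12 listed had negative fold changes. Most of that sum was Cdh1, and without it the list summed to 8.1 to 19.6 CPM and 5.33 to 8.01 CPM. Keratins of the list summed to 0.54 to 7.97 CPM in wild-type mice against 0.0683 to 0.732 CPM in the knockouts. The highest sum was that of wild-type mouse 4, with Krt18 at 4.42, Krt8 at 2.81 and Krt19 at 0.731 CPM. Krt20 was at 0 in all 4 wild-type mice. Neutrophil markers summed to 144 to 240 CPM and 129 to 191 CPM with Ly6g at 0 throughout. Of their 8 tested genes 7 had negative fold changes. The exception, Csf3r, was at 53.3 to 100 CPM and 65.7 to 181 CPM, and it made up most of the sum in knockout mouse 2. T cell markers summed to 33.5 to 115 CPM in wild-type mice and to 22.8, 71.0 and 499 CPM in knockout mice 1, 2 and 3. Natural killer (NK) cell markers summed to 13.7 to 106 CPM and to 12.5, 31.6 and 354 CPM. Both high sums were thus those of knockout mouse 3. Fibroblast markers summed to 124 to 327 CPM and 37.7 to 301 CPM. The part of these cells in the results below was not tested, and in sorted bulk RNA fewer cells of a type and less RNA per cell cannot be told apart.

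RefSeq promoters of GRCm38.p6, from 250 bases before to 50 bases after each annotated start, were found for 33 of the 36 genes, and were searched for ACGTG and GCGTG on both strands. On the printed strand these read as ACGTG or GCGTG, or as CACGT or CACGC from the other strand. The palindrome CACGTG, an E-box, holds both ACGTG and CACGT and counts as 2 matches. At least 1 match lay in the promoters of 31 of 33 genes (93.94%), against 12628 of 27025 genes (46.73%) with a promoter in the same table. These genes' promoters were also richer in G and C, with a median of 64.5% against 52.7%. Among promoters with at least 60% G and C, 25 of 25 of the genes held a match against 70.92% of all genes. A match describes letters in the window and is no evidence of binding.

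Of these promoters 5 are printed 5′ to 3′ on the gene's strand, in lower case with the matches in capitals. Of the 5, 4 belong to genes whose RNA was lower in each knockout mouse than in each wild-type mouse and whose single promoter held a match, and the last, that of Tpi1, belongs to a gene with the same separation and no match in the window. Ero1l is named Ero1a in RefSeq.
Ero1l, chr14:45318523-45318822, minus strand: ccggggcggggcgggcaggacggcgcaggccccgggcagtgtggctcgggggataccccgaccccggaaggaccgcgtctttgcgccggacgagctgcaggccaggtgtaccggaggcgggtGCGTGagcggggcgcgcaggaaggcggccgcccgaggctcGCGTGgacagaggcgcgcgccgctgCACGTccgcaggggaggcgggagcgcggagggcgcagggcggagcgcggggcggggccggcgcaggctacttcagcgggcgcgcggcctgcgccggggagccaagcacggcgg
Egln3, chr12:54203825-54204124, minus strand: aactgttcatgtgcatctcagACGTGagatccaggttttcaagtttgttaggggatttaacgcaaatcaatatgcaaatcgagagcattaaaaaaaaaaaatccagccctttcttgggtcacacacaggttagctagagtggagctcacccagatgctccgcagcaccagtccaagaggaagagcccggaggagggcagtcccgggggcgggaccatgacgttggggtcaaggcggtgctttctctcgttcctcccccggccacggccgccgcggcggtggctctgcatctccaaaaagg
Slc2a1, chr4:119108495-119108794, plus strand: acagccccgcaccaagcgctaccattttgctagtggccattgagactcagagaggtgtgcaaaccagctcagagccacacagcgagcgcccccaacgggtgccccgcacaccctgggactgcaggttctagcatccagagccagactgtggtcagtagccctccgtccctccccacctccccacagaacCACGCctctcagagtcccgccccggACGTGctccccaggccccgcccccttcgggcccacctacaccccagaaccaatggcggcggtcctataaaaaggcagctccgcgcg
Bnip3, chr7:138909457-138909756, minus strand: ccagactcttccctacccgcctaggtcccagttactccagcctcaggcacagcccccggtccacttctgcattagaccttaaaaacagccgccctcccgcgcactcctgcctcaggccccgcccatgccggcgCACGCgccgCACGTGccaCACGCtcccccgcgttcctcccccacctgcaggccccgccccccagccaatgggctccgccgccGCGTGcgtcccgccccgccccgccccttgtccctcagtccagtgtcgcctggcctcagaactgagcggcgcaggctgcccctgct
Tpi1, chr6:124814109-124814408, minus strand: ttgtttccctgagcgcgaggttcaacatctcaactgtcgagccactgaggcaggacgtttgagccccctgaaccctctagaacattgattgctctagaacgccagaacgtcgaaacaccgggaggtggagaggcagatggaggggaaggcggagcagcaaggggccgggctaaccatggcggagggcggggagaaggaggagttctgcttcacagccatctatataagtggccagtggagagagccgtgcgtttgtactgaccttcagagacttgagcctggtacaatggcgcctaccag
The Ero1l window held 3 matches, the nearest 63 bases before the start. Slc2a1 held 2, at 61 and 36 bases before the start, and Egln3 held 1, at 229 bases before it. Bnip3 held 5, of which 1 pair was a CACGTG box. Tpi1 and Gpi1 were the 2 genes of 33 with no match.

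None of the 36 genes passed an adjusted p of 0.05 in edgeR's quasi-likelihood test, in which 6 of 16234 genes (0.037%) passed. Fold changes were small and mostly of 1 sign: 31 of the 36 were negative (86.1%), meaning lower in knockout macrophages, against 50.3% of all genes tested, and their median log2 fold change was -0.24 against -0.00. For 8 of the 36 (22.2%) each knockout mouse lay below each wild-type mouse, which held for 3.33% of all genes tested. These were Ero1l, Egln3, Mxi1, Eno1, Slc2a1, Bnip3, Pdk1 and Tpi1. In 0 of the 36 did each knockout mouse lie above each wild-type mouse, against 2.8% of all genes. An unadjusted p under 0.05 with a lower level in knockout mice was reached by 7 of the 36 (19.4%, against 2.79% of all genes), and with a higher level by 0. The smallest adjusted p was 0.661, of Ero1l. DESeq2, run as an alternative, passed 114 genes (0.702%) and 1 of the 36, Ero1l, with an adjusted p of 0.0359. Without knockout mouse 1 the groups of 16 of the 36 genes did not overlap with knockout lower (44.4%, against 9.66% of all genes), and those of 2, Hk3 and Pfkfb3, with knockout higher (5.56%, against 10.1%).

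**Figure D1:**
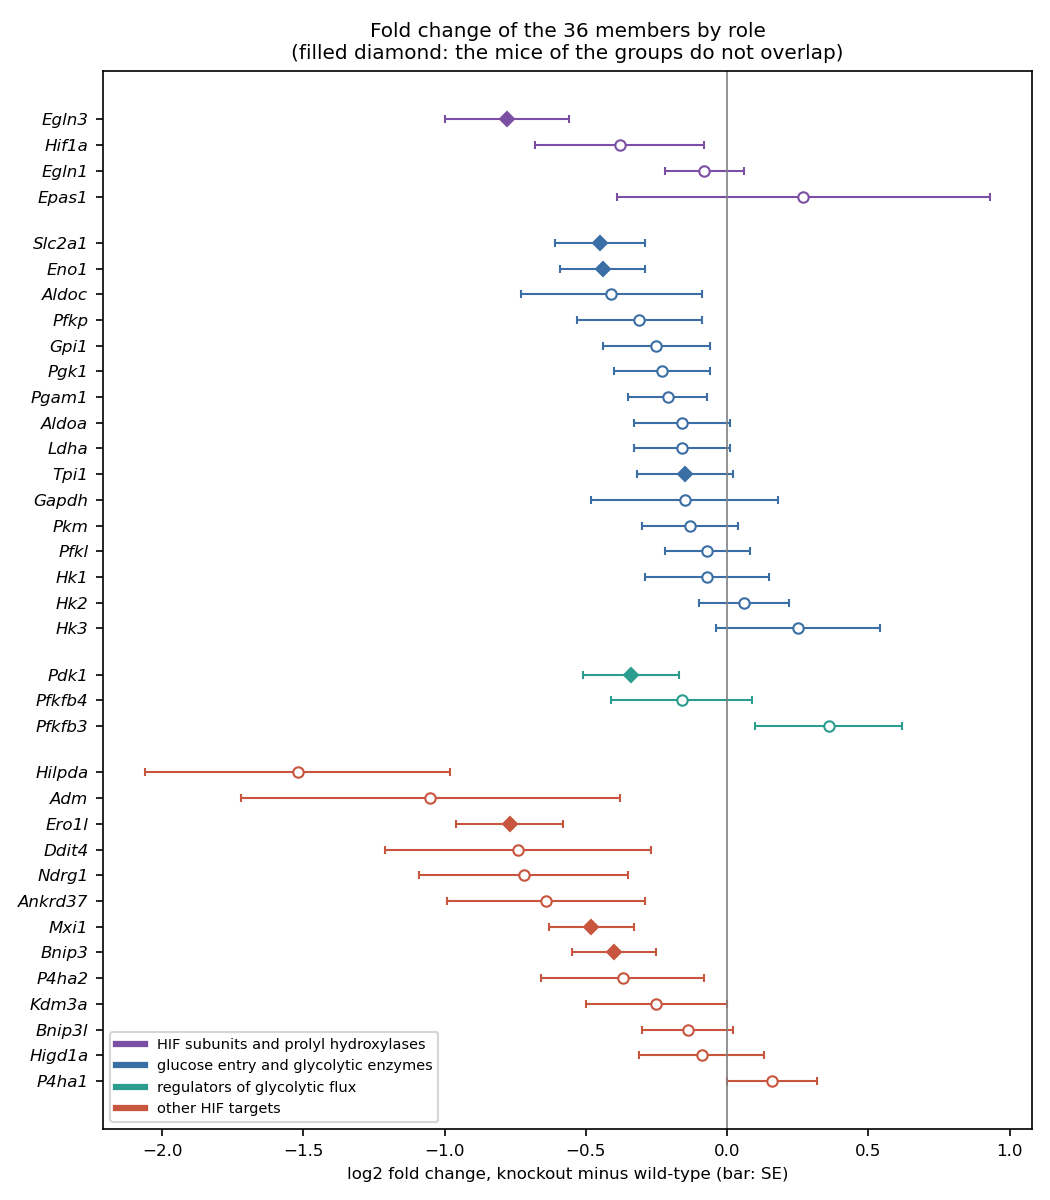
Log2 fold change of each of the 36 genes, knockout minus wild-type (n = 3 and 4 mice), with its standard error as a bar, grouped by role and coloured by group. Filled diamonds are the 8 genes whose mice did not overlap between the genotypes. Of the 36 points 31 lie left of 0, and the other HIF targets reach furthest, to -1.52.

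The mice did not carry this difference equally. Scored as the median over the 36 genes of log2 CPM minus the gene's mean over 7 mice, the wild-type mice in numerical order stood at 0.11, 0.12, -0.01 and 0.24 and the knockout mice at -0.10, -0.16 and -0.08. The 3 knockout mice were thus the 3 lowest, with wild-type mouse 3 next to them, while the same median over all tested genes stayed between -0.02 and 0.04. The lowest library for a gene was a knockout mouse in 30 of 36, mouse 2 in 15, mouse 1 in 10 and mouse 3 in 5. Over all 16234 genes tested it was a knockout mouse in 8304, mouse 2 in 2017, mouse 1 in 4100 and mouse 3 in 2187. The highest was a wild-type mouse in 29 of 36, against 7983 of all 16234 genes. Wild-type mouse 4 held the highest wild-type value for 18 of the 36 genes and for 12 of the 16 glycolytic genes, against 3753 of all 16234 genes. This mouse also held the highest keratin sum and, of the 7 mice, the highest fibroblast marker sum, 327 CPM. Knockout mouse 1 was next for fibroblast markers, at 301 CPM. Wild-type mouse 4 held the highest NK cell marker sum of the wild-type mice, 106 CPM, and the lowest macrophage marker sum of all, 36600 CPM. The part of these sums in its gene values was not tested. Among wild-type mice the median coefficient of variation was 12.3% over the 16 glycolytic genes, 21.4% over the other 20 genes and 24.1% over all genes tested, and it reached 64.8% for Hilpda.

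**Figure D2:**
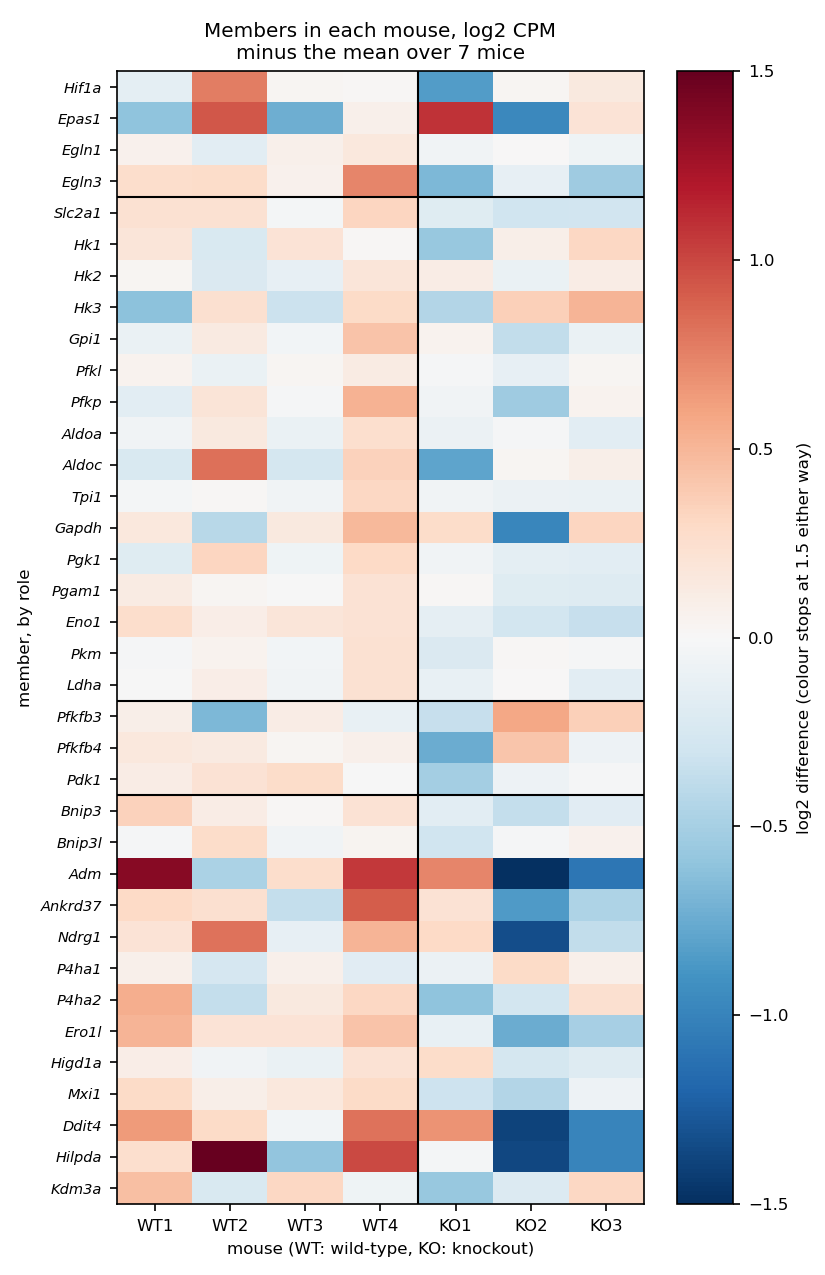
Log2 CPM of each gene in each mouse minus the gene's mean over the 7 mice, with genes in rows by role and mice in columns. The columns of the knockout mice are mostly below the mean, with medians of -0.10, -0.16 and -0.08, and the column of wild-type mouse 4 is mostly above it, with a median of 0.24.

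Among the subunits and sensors, Egln3 differed most. Egln3 encodes the prolyl hydroxylase PHD3, which is itself induced by HIF. Its RNA stood at 47.2, 47.5, 40.9 and 65.4 CPM in the 4 wild-type mice and at 24.7, 36.1 and 27.1 CPM in the 3 knockout mice, each in order of mouse number as throughout. The highest knockout value lay below the lowest wild-type value, and the means of 50.3 ± 10.5 (SD, n = 4) and 29.3 ± 6.01 CPM (SD, n = 3) were 1.72-fold apart (log2 fold change -0.78, SE 0.22, adjusted p = 0.736). Egln1, the gene of PHD2, the main oxygen sensor of most cells, was at 155, 132, 156 and 165 CPM in wild-type and 143, 148 and 141 CPM in knockout mice. Its groups overlapped, with a log2 fold change of -0.08 (SE 0.14).

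Hif1a, the gene of HIF-1 alpha, stood at 162, 306, 184 and 181 CPM in wild-type mice and at 100, 183 and 198 CPM in knockout mice. Wild-type mouse 2 was well above the rest and knockout mouse 1 below, and the log2 fold change was -0.38 (SE 0.30), or -0.15 without knockout mouse 1. Epas1, the gene of HIF-2 alpha, was scarce, at 0.83 to 2.78 CPM in wild-type mice against 0.692 to 3.11 CPM in the knockouts, with a log2 fold change of 0.27 (SE 0.66) that became -0.37 without knockout mouse 1. Divided by exon length, wild-type means were 35.3 CPM per kilobase for Hif1a and 0.269 for Epas1.

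Of the 16 genes for glucose entry and the glycolytic enzymes, 14 had negative fold changes, with a median of -0.16 and a range of -0.45 to 0.25. Slc2a1, which encodes the glucose transporter GLUT1, had the most negative one. It stood at 384, 385, 321 and 411 CPM in wild-type and 290, 267 and 268 CPM in knockout mice. All 3 knockout mice lay below the lowest wild-type mouse, with means of 375 ± 38.3 (SD, n = 4) and 275 ± 12.9 CPM (SD, n = 3) and a log2 fold change of -0.45 (SE 0.16, adjusted p = 0.828). Of the hexokinases, which phosphorylate glucose on entry, Hk2 stood at 151, 127, 135 and 168 CPM in wild-type and 159, 137 and 160 CPM in knockout mice, so that the groups overlapped fully (log2 fold change 0.06, SE 0.16, or 0.02 without knockout mouse 1). Hk3, a form abundant in myeloid cells, was at 183, 331, 224 and 342 CPM and at 206, 359 and 399 CPM (log2 fold change 0.25, SE 0.29, or 0.47 without knockout mouse 1, when its groups no longer overlapped). Hk2 and Hk3 were the 2 glycolytic genes with positive fold changes.

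Further along the pathway, Aldoa, the aldolase that splits fructose bisphosphate, was at 1430, 1640, 1380 and 1770 CPM in wild-type and 1390, 1470 and 1330 CPM in knockout mice (log2 fold change -0.16, SE 0.17). Tpi1, triose phosphate isomerase, stood at 844, 866, 826 and 1060 CPM and at 825, 807 and 800 CPM. Knockout mouse 1 and wild-type mouse 3 nearly touched, and the log2 fold change was -0.15 (SE 0.17, adjusted p = 1.0). Gapdh, the dehydrogenase often used as a reference gene, ranged widely, at 39.6, 26.5, 39.3 and 49.6 CPM in wild-type and 42.7, 17.9 and 44.0 CPM in knockout mice. The lowest value of each genotype was that of its mouse 2, and the log2 fold change was -0.15 (SE 0.33, or -0.32 without knockout mouse 1). Pgk1, the kinase that makes the first ATP of the pathway's payoff phase, was at 48.9, 69.5, 53.0 and 68.2 CPM and at 53.5, 50.4 and 49.8 CPM (log2 fold change -0.23, SE 0.17).

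Eno1, enolase, was the enzyme with the most negative fold change. It stood at 625, 560, 593 and 608 CPM in wild-type and 478, 431 and 410 CPM in knockout mice. The gap between the groups was wider than the whole range of wild-type mice, with means of 596 ± 27.4 (SD, n = 4) and 439 ± 34.7 CPM (SD, n = 3) and a log2 fold change of -0.44 (SE 0.15, adjusted p = 0.823). Pkm, pyruvate kinase, was at 1300, 1370, 1280 and 1550 CPM and at 1140, 1340 and 1300 CPM (log2 fold change -0.13, SE 0.17, or -0.07 without knockout mouse 1). Ldha, which turns pyruvate into lactate, was at 1390, 1490, 1350 and 1630 CPM and at 1290, 1400 and 1250 CPM (log2 fold change -0.16, SE 0.17). In both, wild-type mouse 4 was highest and the groups overlapped. The remaining 6 enzymes, Hk1, Gpi1, Pfkl, Pfkp, Aldoc and Pgam1, overlapped between the groups too, with fold changes from -0.41 for Aldoc to -0.07 for Hk1 and Pfkl. Without knockout mouse 1 that of Aldoc was -0.20 and that of Hk1 0.14.

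Per kilobase of exon, the wild-type levels of the pathway were ordered Aldoa (535 CPM per kilobase), Ldha (443), Tpi1 (327), Pkm (275), Eno1 (111) and Slc2a1 (107), and the lowest were Gapdh (9.37) and Hk1 (11.8). Gapdh is ordinarily among the most abundant RNAs of a cell. It also had the most near-identical copies of these genes. With the counts of those copies added, the wild-type mean of Gapdh was 67.2 CPM in place of 38.7 CPM. The cause of its low level was not tested.

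The 3 regulators of glycolytic flux differed in direction. Pfkfb3 makes fructose 2,6-bisphosphate, the main activator of phosphofructokinase, and was at 187, 111, 191 and 163 CPM in wild-type and 139, 264 and 226 CPM in knockout mice. Knockout mice 2 and 3 were the highest of all 7 and knockout mouse 1 the second lowest, and the log2 fold change of 0.36 (SE 0.26) was the most positive of the 36 genes. It was 0.58 without knockout mouse 1, when the groups no longer overlapped. Its relative Pfkfb4 ranged over 91.5 to 99.9 CPM in wild-type and over 53.2 to 119 CPM in knockout mice, with a log2 fold change of -0.16 (SE 0.25) that became 0.07 without knockout mouse 1. Pdk1 encodes a kinase that shuts off pyruvate dehydrogenase and so keeps pyruvate from the mitochondria. It stood at 107, 115, 120 and 98.2 CPM in wild-type and 69.5, 93.5 and 97.8 CPM in knockout mice. These groups only just failed to overlap, and the log2 fold change was -0.34 (SE 0.17, adjusted p = 0.980), or -0.21 without knockout mouse 1.

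The other HIF targets showed the widest differences. Of 13 genes, 12 had negative fold changes, with a median of -0.48 against -0.16 for the glycolytic genes and a range of -1.52 to 0.16. Ero1l, the endoplasmic reticulum oxidase that drives disulfide formation, stood at 225, 183, 183 and 214 CPM in wild-type and 147, 94.9 and 112 CPM in knockout mice. The groups were far apart, with means of 201 ± 21.4 (SD, n = 4) and 118 ± 26.3 CPM (SD, n = 3), a 1.71-fold difference (log2 fold change -0.77, SE 0.19, adjusted p = 0.661). Without knockout mouse 1 the log2 fold change was -0.97 (adjusted p = 0.0910). By unadjusted p Ero1l held rank 69 among the 16234 genes tested and was first of the 36.

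Mxi1, a repressor that opposes MYC, was at 93.5, 81.6, 85.2 and 93.7 CPM in wild-type and 61.9, 56.3 and 72.4 CPM in knockout mice. The wild-type mice lay close together, and all knockout mice lay below them, at 88.5 ± 6.04 (SD, n = 4) and 63.5 ± 8.16 CPM (SD, n = 3; log2 fold change -0.48, SE 0.15, adjusted p = 0.776). Bnip3, a receptor for the removal of mitochondria, was at 56.3, 48.0, 44.8 and 51.6 CPM and at 39.9, 34.8 and 39.6 CPM (log2 fold change -0.40, SE 0.15, adjusted p = 0.917), again with no overlap. Bnip3l, its relative in mitophagy, ranged over 54.0 to 67.8 CPM and 45.6 to 58.5 CPM, and its groups overlapped (log2 fold change -0.14, SE 0.16, or -0.05 without knockout mouse 1).

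**Figure D3:**
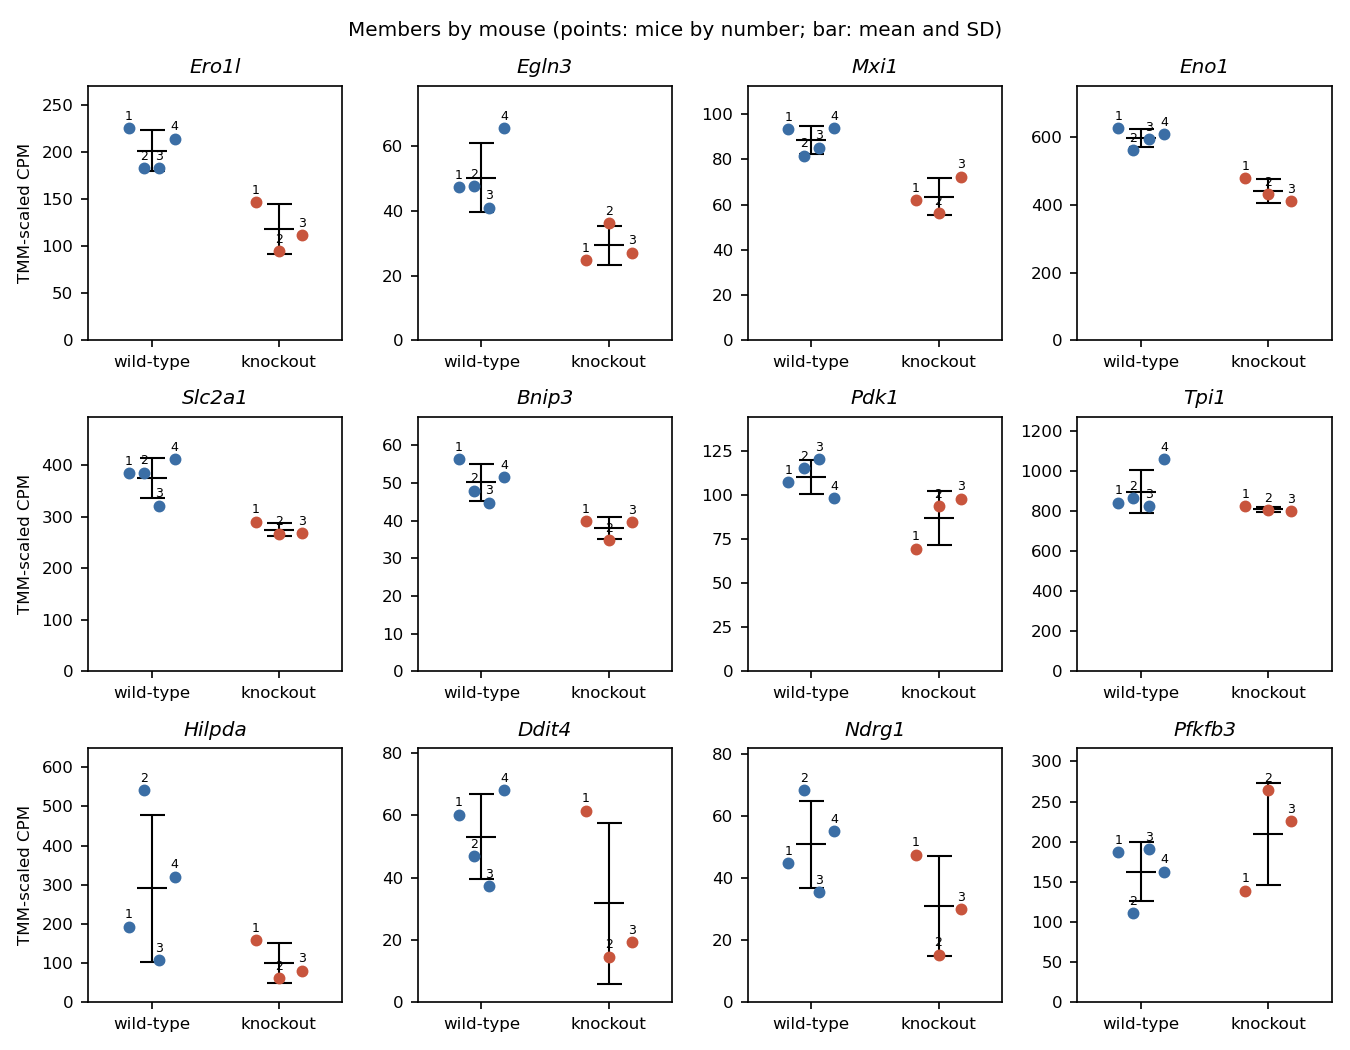
TMM-scaled CPM of 12 genes in each mouse (points numbered by mouse, wild-type blue, knockout red), with the mean and SD of each genotype. The first 8 panels are the genes whose genotypes did not overlap. In Ddit4, Ndrg1 and Hilpda knockout mice 2 and 3 lay below the 4 wild-type mice and knockout mouse 1 among them, and in Pfkfb3 knockout mice 2 and 3 were the highest of the 7.

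Another set of targets was low in knockout mice 2 and 3 but not in knockout mouse 1. Ddit4, which encodes the mTORC1 inhibitor REDD1, stood at 60.1, 46.9, 37.3 and 67.9 CPM in wild-type and 61.4, 14.6 and 19.3 CPM in knockout mice. Knockout mouse 1 lay within the wild-type range and the other two far below it, so the log2 fold change was -0.74 (SE 0.47) with all mice and -1.66 (adjusted p = 0.0866) without mouse 1. Ndrg1, a stress-response gene used as a marker of hypoxia, was at 44.8, 68.2, 35.5 and 55.0 CPM and at 47.5, 15.4 and 30 CPM (log2 fold change -0.72, SE 0.37, or -1.18 without knockout mouse 1). Adm, the gene of the vasodilator adrenomedullin, was low throughout, at 12.8, 3.51, 5.94 and 10.4 CPM and at 8.20, 1.30 and 2.28 CPM (log2 fold change -1.05, SE 0.67, or -2.18 without knockout mouse 1). Its groups overlapped, with wild-type mouse 2 below knockout mouse 1.

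Hilpda, which encodes a lipid droplet protein that blocks fat breakdown, had the most negative fold change of the 36. Its coefficient of variation among wild-type mice, 64.8%, was the largest of the 36. Hilpda stood at 193, 541, 108 and 321 CPM in wild-type and 159, 62.7 and 81.2 CPM in knockout mice. Knockout mouse 1 lay above wild-type mouse 3, so the groups overlapped, and the means of 291 ± 188 (SD, n = 4) and 101 ± 51.2 CPM (SD, n = 3) gave a log2 fold change of -1.52 (SE 0.54, adjusted p = 0.842), or -2.04 without knockout mouse 1.

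P4ha1, a subunit of the collagen prolyl hydroxylase, was the single gene of the 13 with a positive fold change, at 202, 161, 202 and 170 CPM in wild-type and 181, 233 and 202 CPM in knockout mice (log2 fold change 0.16, SE 0.16). Kdm3a, a histone demethylase, was at 87.8, 54.8, 79.5 and 61.2 CPM and at 43.2, 55.9 and 79.9 CPM (log2 fold change -0.25, SE 0.25, or -0.07 without knockout mouse 1). Both overlapped between the groups. The last 3 genes, Ankrd37, the second hydroxylase subunit gene P4ha2 and the mitochondrial protein gene Higd1a, overlapped as well, with fold changes of -0.64, -0.37 and -0.09, or -1.0, -0.20 and -0.29 without knockout mouse 1. Over the 13 genes the lowest of all 7 mice was knockout mouse 2 in 9, and the highest of the knockout mice was mouse 1 in 8. Over all 16234 genes tested these counts were 2017 and 6232. The median score of these 13 genes, computed as above, was 0.30, 0.11, 0.01 and 0.31 in the wild-type mice and -0.08, -0.44 and -0.19 in the knockout mice. Knockout mouse 2 also held the highest macrophage marker sum, 124000 CPM with Apoe and 49500 CPM without it, and the part of this in the scores was not tested.

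Other genes of the same pathways, listed apart from the 36, gave a mixed picture. These lists too were chosen with earlier results of these data known. In edgeR 0 of them passed the threshold, with an unadjusted p under 0.05 for 7 lower and 2 higher further HIF targets, for 2 higher genes of HIF control, for 1 higher gene of sugar and lactate handling and for 0 genes of pyruvate oxidation. Over all 16234 genes tested in edgeR, 453 had such a p with a lower level and 418 with a higher level. DESeq2 passed 3, all among the 33 further HIF targets tested, namely Ppfia4, Angptl4 and Cxcr4, and limma voom passed 0. Of all 16234 genes tested DESeq2 passed 114 (0.702%) and limma voom 9. Of 13 tested genes that control HIF, 6 had negative and 7 positive fold changes, with a median of 0.03. All knockout mice were higher than all wild-type mice for 2 of them, Egln2 and Cited2, against 2.8% of all genes tested. Egln2, the third prolyl hydroxylase gene, was at 62.0 and 82.0 CPM on average (log2 fold change 0.40, SE 0.17, or 0.26 without knockout mouse 1). Cited2, which competes with HIF for the coactivator p300, was at 140 ± 19.1 (SD, n = 4) and 196 ± 25.2 CPM (SD, n = 3; log2 fold change 0.49, SE 0.17, adjusted p = 0.823 in edgeR). Ep300, the gene of that coactivator, stood at 92.4 and 88.8 CPM.

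Of 33 further HIF targets tested, 21 had negative and 12 positive fold changes, with a median of -0.13. Each knockout mouse lay below each wild-type mouse for 5 of them (15.2%, against 3.33% of all genes tested). Ppfia4 differed most, at 77.3, 156, 175 and 45.8 CPM in wild-type and 2.43, 9.11 and 4.23 CPM in knockout mice. The lowest wild-type mouse lay far above the highest knockout mouse, and the log2 fold change was -4.44 (SE 0.64, adjusted p = 0.137 in edgeR and 4.57e-15 in DESeq2). Angptl4, an inhibitor of lipoprotein lipase, was at 15.2 and 5.40 CPM (log2 fold change -1.49, SE 0.35, adjusted p = 0.657), Ak4, a mitochondrial adenylate kinase, at 13.5 and 5.99 CPM (-1.17, SE 0.32) and Vldlr, a lipoprotein receptor, at 2.47 and 0.818 CPM (-1.59, SE 0.61). The fifth was Hspa9, a mitochondrial chaperone, at 212 and 157 CPM (-0.43, SE 0.14). For 3 of the 33, against 2.8% of all genes tested, all knockout mice were higher than all wild-type mice. These included the chemokine receptor gene Cxcr4, at 75.4 and 208 CPM (log2 fold change 1.46, SE 0.34, adjusted p = 0.657 in edgeR). Another was the glucose transporter gene Slc2a3, also a gene of the next list, at 8.87 and 16.2 CPM (0.87, SE 0.34). Vegfa, the main angiogenic HIF target, was the highest of this list and had overlapping groups, at 483 ± 107 (SD, n = 4) and 546 ± 265 CPM (SD, n = 3; log2 fold change 0.18, SE 0.34, or 0.48 without knockout mouse 1). Bhlhe40 was next, at 418 and 259 CPM (-0.69, SE 0.38).

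Beyond glycolysis itself, 19 further genes of sugar and lactate handling had 11 negative and 8 positive fold changes, with a median of -0.04, or 8 negative ones and a median of 0.21 without knockout mouse 1. The lactate exporter gene Slc16a3 was highest, at 380 and 339 CPM (log2 fold change -0.17, SE 0.18, or -0.27 without knockout mouse 1), followed by the hexose transporter gene Slc2a6, at 66.0 and 79.9 CPM (0.28, SE 0.23). Of 11 genes that take pyruvate to acetyl-CoA, 6 were negative and 5 positive, also with a median of -0.04. Pdhx, a structural subunit of pyruvate dehydrogenase, was higher in each knockout mouse, at 19.0 and 24.5 CPM on average (0.37, SE 0.20, or 0.19 without knockout mouse 1). Dld was at 97.8 and 80.6 CPM and Pdhb at 70.7 and 68.8 CPM, both with overlapping groups.

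Families with more than 1 gene among the 36 were compared by the share of 1 gene in the family's summed CPM per kilobase, which does not depend on library scaling. The share of Egln3 in Egln1 plus Egln3 was 29.2, 32.7, 26.2 and 34.8% in wild-type and 18.9, 24.7 and 20.6% in knockout mice, a difference of -9.3 percentage points. The share of Pfkfb4 in Pfkfb3 plus Pfkfb4 was 45.3, 58.0, 42.6 and 47.2% in wild-type and 37.3, 41.2 and 36.8% in knockout mice, a difference of -9.87 percentage points. Neither share overlapped between the groups, and each gave p = 0.0571 in a two-sided exact permutation test over 35 splits, whose smallest p is 0.0286, and p = 0.2 adjusted over the 7 shares. The Egln3 share lay lower in all 3 knockout mice although Egln1 levels overlapped. The other 5 shares overlapped between the groups, with exact permutation p adjusted over 7 of 0.333 to 0.8. Among the hexokinases Hk3 held 56.5 to 74.3% of the family in wild-type mice against 62.0 to 73.6% in the knockouts, Hk2 17.6 to 28.8% and 17.3 to 29.5%, and Hk1 the remainder.

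**Figure D4:**
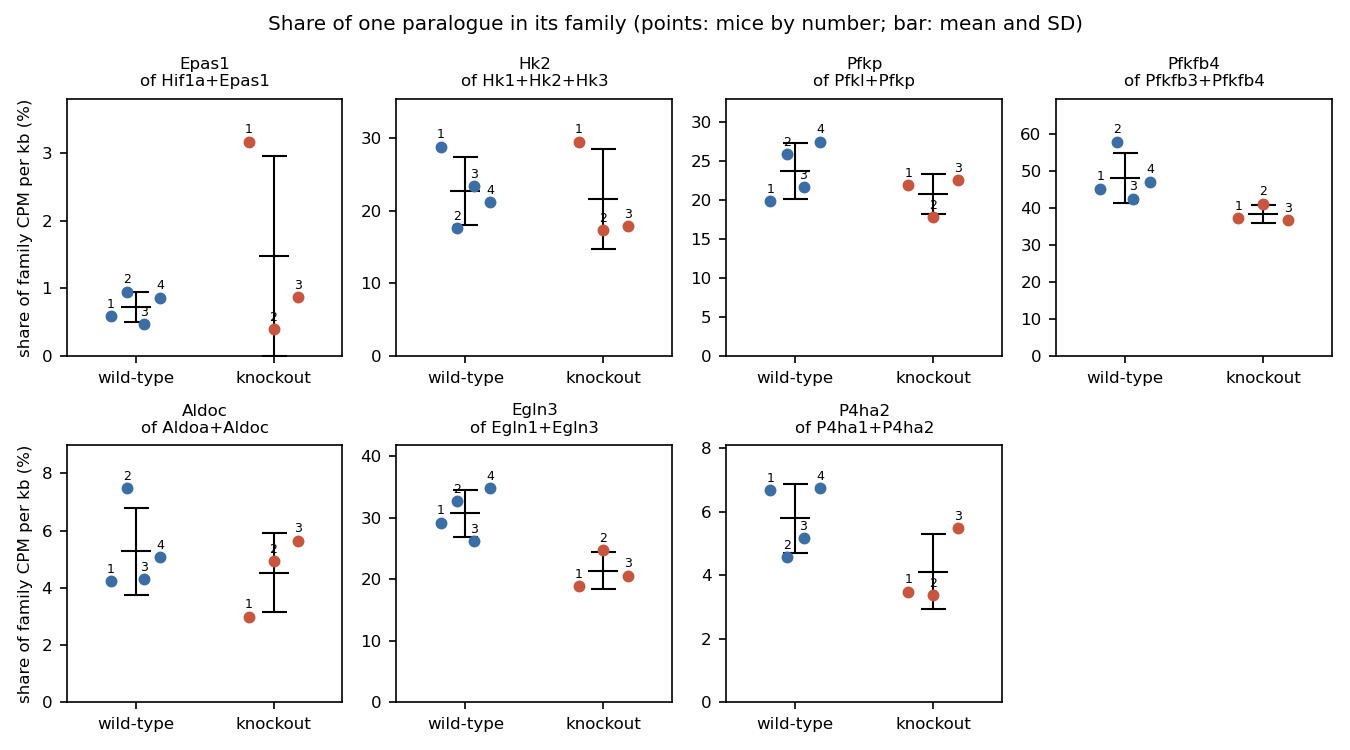
Share of 1 gene in its family's summed CPM per kilobase (%), by mouse (points numbered by mouse), with the mean and SD of each genotype. The shares of Egln3 and Pfkfb4 did not overlap between genotypes, at 26.2 to 34.8% against 18.9 to 24.7% and at 42.6 to 58.0% against 36.8 to 41.2%, and the other 5 did.

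Many glycolytic genes have processed pseudogenes, inserted copies of their spliced RNA, and reads from the gene can then be assigned to a copy. Of the 36 genes, 17 shared at least 2% of their 50-base words with any other gene, overlapping genes included. The 17 are therefore not all genes with copies: Ankrd37 shared 17.0% and had 0 copies. Counts at copies exceeded those at the gene itself for Higd1a (6.24 times), Gpi1 (2.58), Pgam1 (2.55), Eno1 (1.97), Pkm (1.33) and Bnip3l (1.06). For Eno1 the gene itself held 99751 counts over the 7 libraries, the pseudogene Gm4735 held 136035 and the copy Eno1b held 61655. The copies had fold changes of the same sign as the gene, with log2 fold changes of -0.21 and -0.31, and the sum of all gave -0.31 (SE 0.19) in place of -0.44. Gapdh had 84 copies with counts, itself held 48.7 to 62.9% of the sum in wild-type mice against 42.0 to 60.5% in the knockouts, and its fold change went from -0.15 to -0.00 when they were summed. That of Bnip3 went from -0.40 to -0.45. The levels and order of these genes per kilobase are therefore uncertain. The gene's own percentage overlapped between genotypes for 10 of the 11 genes plotted, and for Pgk1 it was 75.0 to 79.7% in wild-type mice against 79.9 to 81.9% in the knockouts. The 19 genes with less than 2% of shared words had 14 negative fold changes and a median of -0.25, and the other 17 had 17 negative ones and a median of -0.23. Ero1l and Slc2a1 shared 1.69% and 1.54% of their words, and Egln3, Pdk1, Ddit4 and Hilpda 0%.

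**Figure D5:**
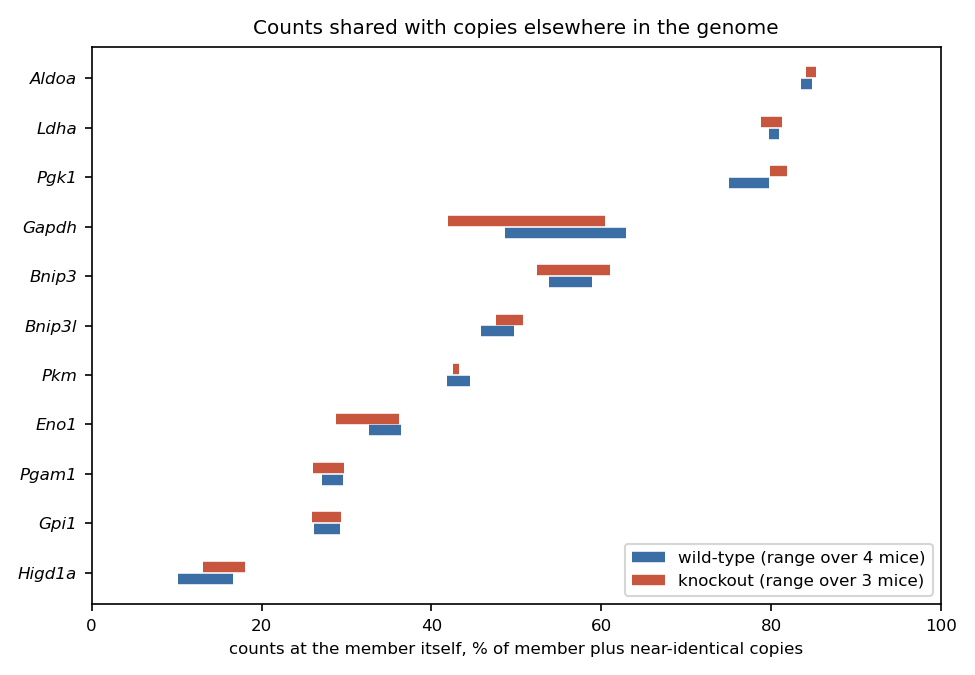
Counts at the gene itself as a percentage of the gene plus its near-identical copies elsewhere in the genome, with the range over mice of each genotype as a bar. The 11 genes run from Higd1a, at 10.2 to 16.7% in wild-type mice, to Aldoa, at 83.5 to 84.8%, and the genotypes' bars overlap for most of them.

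Reads of overlapping genes can also be confused, because the sources used here do not say whether counting used strand. Ankrd37 overlaps genes that held 11569 counts, or 337% of its own, Gapdh overlaps genes that held 59.1% of its own and Pfkp overlaps one that held 16.7%, while no other gene of the 36 had more than 2.72%.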

How the data were processed

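The authors deposited whole-number read counts per gene, without normalization, for 7 libraries made with a SMART-seq kit from polyA RNA, per the labels' protocols. Every value column matched 1 library (0 unmatched). The build was GRCm38 and BWA 0.7.12, cutadapt 1.15, DESeq2 1.24.0 and FastQC 0.11.5 are listed without a role, per the submitters' processing notes. The counting program, its strand setting and its handling of reads with several matches are not given in the sources used here. The labels give each library as a numbered mouse.

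Counts were fitted with edgeR 4.0.16 under R 4.3.3 (quasi-likelihood F test, robust, TMM scaling, default filter on low counts by group, Benjamini-Hochberg adjustment over 16234 genes, threshold 0.05), with the genotype as the only term. Every adjusted p in the text comes from that fit unless another tool is named. SE is the fold change divided by the root of its F statistic. CPM values are TMM-scaled, and a prior count of 2 went into log2 CPM. Levels of different genes were compared per kilobase of merged exons in GENCODE M21 (99.8% of identifiers matched). A near-identical copy is a gene elsewhere that shares at least 100 of a gene's 50-base words. Alternatives included DESeq2 1.42.0, limma 3.58.1 (voom with a quality weight for each library), other scalings and filters, and leaving out each library. The test was tried on simulated data.

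The 36 genes and the lists of other genes were chosen with earlier results of these data known. Values per mouse are given for the main genes of each role, for genes whose groups did not overlap and for the 3 smallest p in each direction, and for the rest ranges and counts. From the other lists the text names genes whose groups did not overlap and the 2 highest. The markers Krt20, Krt18, Krt8, Krt19, Cdh1, Ly6g and Csf3r were picked once their values were known. So were the sums of fibroblast and NK cell markers. The limits of 2% shared words and 60% G and C, and the sums with copies, were also chosen after seeing the data. A single gene of the other lists is counted there but not reported here by name.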

Additional observations from a re-analysis of the deposited data

Results flagged for a closer look

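In 43 sets of 4 wild-type values (36 genes and 7 shares), 1 mouse stood far from the other three in 2, where chance alone gives about 1 in 20. Wild-type mouse 2 was high in Hif1a, at 306 CPM against 162 to 184 CPM, a gap of 0.848 of the whole range. Wild-type mouse 4 was high in Tpi1, at 1060 CPM against 826 to 866 CPM, a gap of 0.83 of the range. The 3 knockout mice are too few for this check.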

How the results depend on the processing

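The number of genes past the threshold, 6, was 11 with no filter, 114 with DESeq2, 1 with the replicate block and 3 to 14 when single libraries were left out, the lowest without knockout mouse 2 and the highest without knockout mouse 1. Of the 36 genes 1, Ero1l, passed with DESeq2, and 0 passed under any other alternative. At an adjusted p of 0.1, 0 passed with all libraries in edgeR, while Ddit4 (0.0866) and Ero1l (0.0910) lay under it without knockout mouse 1 and Eno1 (0.0977) in DESeq2. With limma voom 10 of the 36 had an unadjusted p under 0.05 and a lower level in knockout mice and 1 a higher level, and without single libraries 3 to 11 were lower. The share of all genes with such a p is not given for these alternatives, so these counts stand without a comparison. The number of negative fold changes was 29 to 31 and their median -0.31 to -0.18 over all 17 alternatives. The median of all genes was -0.002 with TMM scaling, 0.002 with DESeq2's size factors and 0.004 with upper-quartile scaling. Fold changes kept their sign under all 17 alternatives for 30 of the 36 genes. Those of Aldoc and Hk1 became 0.04 and 0.01 with limma voom. Without single libraries, Epas1 ranged over -0.37 to 0.75, Pfkfb4 over -0.48 to 0.07, Hk1 over -0.26 to 0.14, Higd1a over -0.29 to 0.01 and Gapdh over -0.35 to 0.16. The difference in share ranged over -5.14 to 0.943 percentage points for Hk2, -0.0843 to 1.3 for Epas1 and -1.3 to 0.0205 for Aldoc. The cause of these sign changes was not tested.

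The labels do not say whether the mouse numbers pair the samples. The deviations of same-numbered mice correlated at 0.0656, 0.0509 and 0.0882. Pairs of differently numbered mice were not computed, so these values cannot decide it. With the replicate block 4 of the 36 genes had an unadjusted p under 0.05 with a lower level, and the median fold change was -0.18. Summing near-identical copies, added after seeing the data, left 6 of the 36 with an unadjusted p under 0.05 and a lower level. For the block and for this sum too, the share of all genes with such a p is not given.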
